A study of Drosophila melanogaster with 35 samples.

Results

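The comparison described here set the CLAMP-associated RNA regions of chromatin against those of nucleoplasm in S2 cells, a male Drosophila melanogaster line of embryonic origin. Every peak that the authors listed for the 2 fractions was taken. Chromatin gave 1416 peaks and nucleoplasm 391, which together are 1807 of the 3235 peaks in the lists read for the whole series. A peak is a stretch of genome on 1 strand where the authors called an excess of crosslinked reads. The series asks which RNAs interact with CLAMP in male and in female cells.

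CLAMP has zinc fingers with which it recognises GA-rich DNA, and it acts in dosage compensation, the process by which the single X chromosome of males is transcribed at a raised rate. The male-specific lethal complex that carries this out contains roX RNAs. In individual-nucleotide crosslinking and immunoprecipitation (iCLIP), ultraviolet light links protein to RNA, the protein is precipitated, and the attached RNA is sequenced. In the fractionated form, cells are first separated into cytoplasm, nucleoplasm and chromatin. Chromatin retains RNAs that are being transcribed or are tethered to DNA, whereas nucleoplasm holds RNAs released into the soluble nuclear phase.

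S2 cells were grown untreated and irradiated at 254 nm, and each fraction was precipitated with a rabbit antibody to CLAMP in 4 libraries. Libraries carried barcodes of 4 nt and were amplified over 31 PCR cycles. Each fraction also had 2 precipitations without antibody from irradiated S2 cells, and the labels of 1 of the 2 name the fraction's list. Which of these libraries the authors pooled into a list is not stated. Female Kc cells were prepared in the same way, with 4 CLAMP libraries in each fraction, and are used below only as side-by-side values. The labels of 3 of the 4 name the Kc nucleoplasm list, and those of a Kc chromatin control without antibody name it too.

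With a single pooled list for each fraction, replicate spread is unknown and no difference between fractions was tested. Intervals in parentheses are 95% Wilson intervals of a share, or Woolf intervals of an odds ratio, and cover counting error only. Odds ratios and their intervals were computed with a small constant added to each count, so they differ from those of the plain counts. They treat peaks as independent, which copies of 1 RNA are not. The lists carry no read counts, so the depth behind a peak is unknown. No control list was set beside them, and whether any given peak marks contact with CLAMP is not shown. An RNA without a peak may be rare in a fraction, sequenced too shallowly or seldom crosslinked, and these cannot be told apart.

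S2 cells are male and resemble hemocytes, the blood cells of the fly. The lists check that label only in part, because peaks do not measure expression. roX2, an RNA of the male dosage compensation complex, had 1 chromatin peak, and roX1, msl-2 and the female switch gene Sxl had none. Of 12 laminin, collagen and hemocyte genes 6 had a chromatin peak, namely LanA, LanB1, LanB2, vkg, Ppn and Hml. The rest of that list had no peak in either fraction. None of 10 neuron and germline genes had a peak in either fraction. Since 3.48% of all annotated genes had a chromatin peak and 0.305% a nucleoplasm peak, 0 of 10 does not set these genes apart and is no check of the label.

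Nucleoplasm peaks lay mostly where chromatin also had a peak, and the reverse did not hold. The chromatin list has 1416 peaks against 391, too many for most of them to have a separate nucleoplasm partner. On the same strand, 267 of 391 nucleoplasm peaks shared at least 1 nt with a chromatin peak, a share of 68.3% (63.5 to 72.7). Of the chromatin peaks, 266 of 1416 shared a position with nucleoplasm, a share of 18.8% (16.8 to 20.9). These 2 shares are the background against which the classes below are read. Only 10 nucleoplasm peaks met a chromatin peak on the opposite strand.

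Peaks were assigned to a class by the annotation at their midpoint. Small non-coding RNAs had the highest overlap among classes with more than 3 nucleoplasm peaks, with 24 of 27 nucleoplasm peaks on a chromatin peak, or 88.9% (71.9 to 96.1). Ribosomal RNA exons followed with 88 of 117, or 75.2% (66.7 to 82.2). Their intervals overlap, so the order of these 2 classes is within counting error. Intergenic peaks, of which 58 of 62 lay in the rDNA block of the X chromosome, had 42 of 62. Scaffolds without annotation, contigs whose names matched none in the gene models, had 111 of 171, or 64.9% (57.5 to 71.7). Genes that may lie on them were therefore not looked up.

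No site in a protein-coding exon was shared between the fractions. None of the 9 nucleoplasm peaks in coding exons met a chromatin peak, which allows a share of up to 33.3%. None of the 415 chromatin peaks in coding exons met a nucleoplasm peak, which allows a share of up to 0.723%. The same held separately for 220 CDS, 160 3' UTR and 35 5' UTR peaks of chromatin, and for its 69 peaks in transposable elements. The nucleoplasm list held 9 peaks in coding exons and 0 in transposable elements. Few partners were therefore available to these chromatin peaks, and the absence of shared sites says little about them. Of the 57 intronic chromatin peaks 1 had a nucleoplasm partner.

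**Figure D1:**
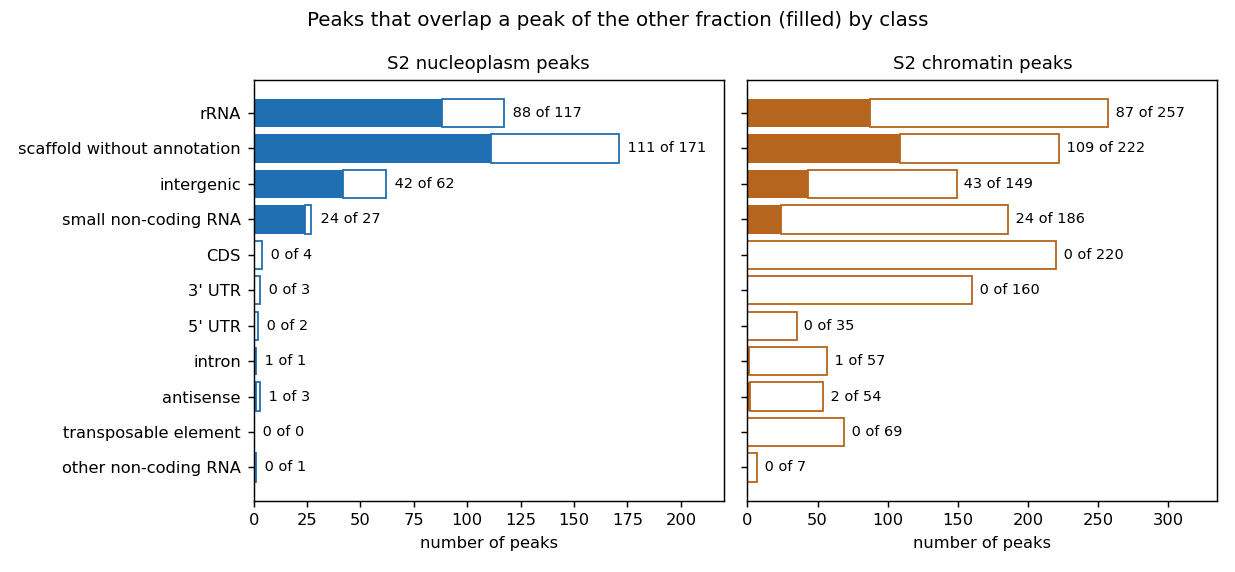
Number of S2 peaks in each annotation class (x axis, peaks; left panel nucleoplasm, right panel chromatin). The outlined bar is the whole class and the filled part is the peaks that share at least 1 nt with a peak of the other fraction, as in 24 of 27 small non-coding RNA peaks of nucleoplasm and 0 of 415 coding-exon peaks of chromatin, which are drawn as CDS, 3' UTR and 5' UTR.

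Coding exons took a larger share of the chromatin list. They held 29.3% of chromatin peaks (27 to 31.7) and 2.3% of nucleoplasm peaks (1.22 to 4.32), an odds ratio of 16.7 (8.69 to 32.1). Ribosomal RNA, unannotated scaffolds and intergenic sequence together held 44.4% of chromatin and 89.5% of nucleoplasm peaks. Because that block fills most of the nucleoplasm list, the chromosome arms outside rDNA were also taken alone, a choice made after seeing the data. There chromatin had 798 peaks and nucleoplasm 40. Small non-coding RNAs then made up 21.7% of chromatin peaks (19 to 24.7) and 67.5% of nucleoplasm peaks (52 to 79.9), the reverse of their order over all peaks. Coding exons stayed higher in chromatin on the arms, with 50.8% (47.3 to 54.2) against 22.5% (12.3 to 37.5).

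Where the fractions shared a site, the boundaries seldom coincided. Among the 267 nucleoplasm peaks with a partner, 70 began within 2 nt of it, 30 matched it within 2 nt at both ends, and 12 were identical. The median distance was 9 nt at either end. Wide chromatin peaks are met more easily than short ones, so widths within pairs may partly follow from the pairing. The nucleoplasm peak was the narrower one in 201 pairs and the wider in 52, with median widths of 53 nt in nucleoplasm and 72 nt in chromatin, and 145 nucleoplasm peaks lay wholly inside their partner.

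Ribosomal RNA and the unannotated scaffolds made up most of these pairs. Of 88 rRNA pairs the chromatin peak was wider in 79, with medians of 77.5 and 55 nt, and of 111 scaffold pairs in 83. In the 24 small RNA pairs neither fraction was wider more often, with 11 pairs each way, and 19 pairs ended within 2 nt of each other at the 3' end. Over the whole lists the order was the other way, with medians of 39 nt in chromatin and 52 nt in nucleoplasm, and 26.1% of chromatin peaks and 8.44% of nucleoplasm peaks were under 30 nt. Short peaks were common in coding exons, where 40.7% of chromatin peaks were under 30 nt.

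At the level of genes, 638 of 18358 annotated genes had a chromatin peak, or 3.48%, and 56 had a nucleoplasm peak, or 0.305%. The 48 genes with both are 85.7% of the nucleoplasm genes and 7.52% of the chromatin genes. The second share could not be large, since only 56 genes had a nucleoplasm peak. Small non-coding RNA genes accounted for 24 of the shared genes and rRNA genes for 20. The remaining 4 were protein-coding. Genes with a nucleoplasm peak alone numbered 8, comprising 6 protein-coding genes, the snoRNA gene Psi28S-1135e and the non-coding RNA CR31958.

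The spliceosomal snRNAs form the particles that remove introns, and U1 and U2 recognise the 5' splice site and the branch point. Chromatin peaks lay in 18 of 28 annotated snRNA genes and nucleoplasm peaks in 7, all of which also had a chromatin peak. The nucleoplasm genes were copies of U1, U2 and U5. U4 and U6, which enter the spliceosome paired with each other, had peaks in chromatin alone, with 2 of 3 and 3 of 3 copies. The gene copies of each snRNA are nearly identical, and how reads that fit several copies were assigned is not stated, so copies may share reads.

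Positions in an snRNA are counted from its annotated 5' end. In U1, of 164 nt, both fractions peaked over the 3' portion that carries the last stem loop. Chromatin peaks covered 113 to 165 in copies 21D and 95Ca and the nucleoplasm peaks 109 to 165, with the same 3' end. In copy 95Cb they covered 128 to 166 in chromatin and 128 to 165 in nucleoplasm. The U1 sites of the fractions thus differed by a few nucleotides at most.

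U2 was less alike. Chromatin peaks in 5 of 6 copies began at 102 or 103 and ended between 123 and 125, and the peak in copy 34ABb ran from 109 to 165. The nucleoplasm peak of copy 34ABa began at 103 as in chromatin and ran on to 165, while that of copy 14B lay at 69 to 112. In U5, whose loop near the 5' side aligns the exons, chromatin peaks covered 1 to 58 in copies 38ABb and 63BC. Nucleoplasm peaks of both copies covered 20 to 47, inside the chromatin peaks. A further chromatin peak of 63BC, at 91 to 125, had no nucleoplasm partner. The chromatin peaks of U6 lay at 26 to 52 in all 3 copies, and those of U4 at 71 to 97 in copy 38AB and at 20 to 43 and 70 to 102 in copy 39B.

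U3, the box C/D snoRNA that pairs with the rRNA precursor during its first cleavages, had a site with a peak in S2 nucleoplasm and none in S2 chromatin. Nucleoplasm peaks covered nucleotides 1 to 42 in copies 54Ab and 9B. In Kc cells the site in 9B overlapped a chromatin peak and no nucleoplasm peak, and that in 54Ab overlapped neither. The same 2 copies had a second nucleoplasm peak, at 116 to 182 in 54Ab and 117 to 152 in 9B. Chromatin overlapped it with peaks at 53 to 201 and 116 to 152. Chromatin also peaked over the 3' end, at 186 to 213 in 9B and 180 to 210 in 54Aa. The 2 sites at the 5' end are 2 of the 3 small RNA peaks of nucleoplasm without a chromatin partner. Chromatin peaks lay in 33 of 270 other snoRNA genes, against 1 in nucleoplasm, the 27 to 79 stretch of Psi28S-1135e on chromosome X (17145802 to 17145854 on the dm6 build), a guide named for a pseudouridine of 28S rRNA. In Kc cells that stretch overlapped a chromatin peak and no nucleoplasm peak.

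**Figure D2:**
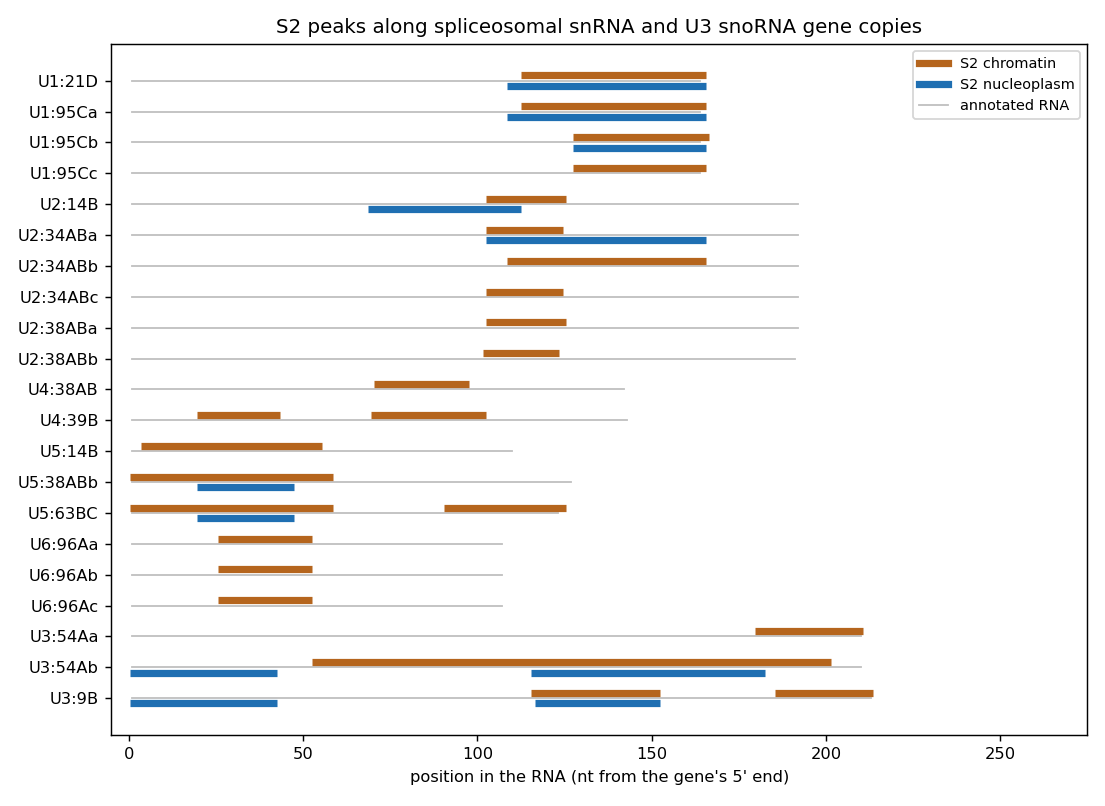
S2 peaks along each copy of the spliceosomal snRNAs and U3 that had one (x axis, nt from the 5' end of the gene; grey line, annotated RNA; orange, chromatin; blue, nucleoplasm). U1 peaks of both fractions end together near 165, U4 and U6 carry chromatin peaks only, and nucleoplasm peaks at 1 to 42 of U3 have no counterpart in S2 chromatin, although a Kc chromatin peak, not drawn, overlaps the one in 9B.

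Other structural RNAs were seen in chromatin. 7SL, the RNA of the signal recognition particle that brings translating ribosomes to the endoplasmic reticulum, had 4 chromatin peaks in copy CR32864, at 37 to 70, 80 to 122, 207 to 232 and 233 to 263 of 299 nt, and 1 in copy CR42652. 7SKa, a copy of the RNA that holds the elongation factor P-TEFb inactive, had 1 at 300 to 332. RNaseMRP:RNA, part of an endonuclease that acts on the rRNA precursor, had 1 at 184 to 209. Of these 6 annotated RNAs, 4 had a chromatin peak and none a nucleoplasm peak.

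Nuclear tRNA genes held 103 chromatin peaks in 100 of 295 genes and 15 nucleoplasm peaks in 15 genes. Every one of the 15 nucleoplasm peaks overlapped a chromatin peak. By anticodon, chromatin covered 25 of 45 families and nucleoplasm 8 of those 25. Coverage of a family by chromatin was often complete, and 9 families had a peak in every annotated gene. All 10 genes of Asn-GTT, all 8 of Phe-GAA, all 8 of Ser-AGA and all 7 of Pro-AGG had one, against 4 of 15 in Glu-CTC and 2 of 13 in Lys-CTT. Nucleoplasm peaks fell in 4 genes of Phe-GAA, 3 of Ser-AGA, 2 each of Asn-GTT and Glu-TTC and 1 each of Lys-TTT, Ser-GCT, His-GTG and Lys-CTT. Genes of 1 anticodon are near copies, so a complete family may rest on shared reads.

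The peaks of both fractions lay on the 3' side of the tRNA. Their midpoints were beyond the middle of the gene in 98 of 103 chromatin peaks, 95.1% (89.1 to 97.9), and in 15 of 15 nucleoplasm peaks (79.6 to 100). The 3' end was within 3 nt of the annotated gene end in 97 and 15. The median start was nucleotide 35 in chromatin and 34 in nucleoplasm, near the anticodon. In Phe-GAA the starts differed between fractions. Chromatin peaks of its 8 genes began at 38 or 39, whereas 3 of the 4 nucleoplasm peaks began at 27 and the other at 34. In Ser-AGA both fractions began at 50 in the 3 shared genes. The peaks of Asn-GTT-1-10 (chromosome 3R, 8139533 to 8139579) and Lys-TTT-2-5 (chromosome 3R, 12131389 to 12131428) had the same start and end in both fractions.

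**Figure D3:**
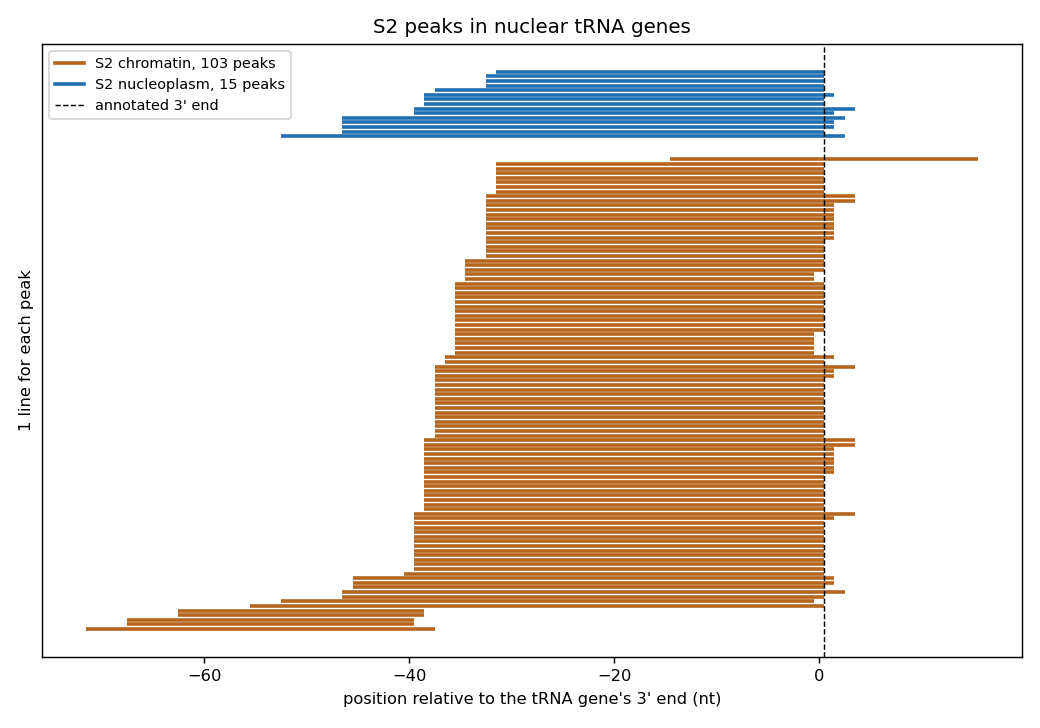
Every S2 peak in a nuclear tRNA gene as a line (x axis, nt relative to the annotated 3' end of the gene; 103 chromatin peaks in orange, 15 nucleoplasm peaks in blue). In both fractions the lines run from near the middle of the gene to the 3' end, and 5 chromatin peaks begin before nucleotide 20 of the gene.

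Ribosomal RNA is transcribed as 1 precursor that is cut into 18S, 5.8S, 2S and 28S RNAs, with spacers discarded. On CR45847, an annotated precursor of 8118 nt on the rDNA scaffold, chromatin had 38 peaks and nucleoplasm 48. The bases covered were nearly equal, at 39% and 39.7% of the precursor. The 1771 nt covered by both are 55.9% of the chromatin bases and 55% of the nucleoplasm bases. The near-equal coverage holds for this copy, and other copies of 18S and 28S, given below, had more peaks in chromatin than in nucleoplasm.

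The share of nucleoplasm bases that chromatin also covered differed between the mature RNAs, and it is read beside the chromatin coverage of each. In 18S, 54% of bases were covered in chromatin and 47.3% in nucleoplasm, and 70.8% of the nucleoplasm bases were shared. In 5.8S and 2S with their spacer, of 181 nt, 2 chromatin peaks covered 61.9% and 1 nucleoplasm peak 34.3%, with 1 nt shared. In 28S the shares covered were 44.4% in 18 chromatin peaks and 51.8% in 31 nucleoplasm peaks, of which 49.7% was shared. That value lay near the 44.4% of 28S that chromatin covered, whereas the 70.8% in 18S lay above 54%. The last chromatin base was 3605 of 3970, and 3 nucleoplasm peaks started after it. Kc cells had 3 chromatin and 4 nucleoplasm peaks there. Neither S2 fraction had a peak in 28S from 2132 to 2587, a stretch of 456 nt, and with both Kc lists added 442 nt of it remained free.

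In the spacers the counts were small. The 5' external spacer, which is removed early, was covered over 17.9% in chromatin and 17.8% in nucleoplasm, of which 52.3% of the nucleoplasm bases were shared. In Kc the same spacer was covered over 0% in chromatin and 2.09% in nucleoplasm. The spacer before 28S was covered over 13.5% in chromatin and 1.3% in nucleoplasm.

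Near-identical 18S copies on the same scaffold did not carry the same peaks. Chromatin covered 54.9% of copy CR41548 in 16 peaks and 53.5% of copy CR45838 in 15. Nucleoplasm covered 11.1% in 4 peaks and 14.3% in 5. Over 3 copies chromatin had 43 peaks in 29 distinct intervals, and 9 of 13 merged sites were present in all copies. Nucleoplasm had 22 peaks in 21 distinct intervals, and 4 of 13 sites were in all copies. In CR45837, a shorter annotated 28S gene of the same scaffold, chromatin had 13 peaks and nucleoplasm 10, and in the 28S pseudogene CR40596 18 and 6, against 18 and 31 in the precursor copy above. Values for 1 copy therefore depend on which copy is read.

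**Figure D4:**
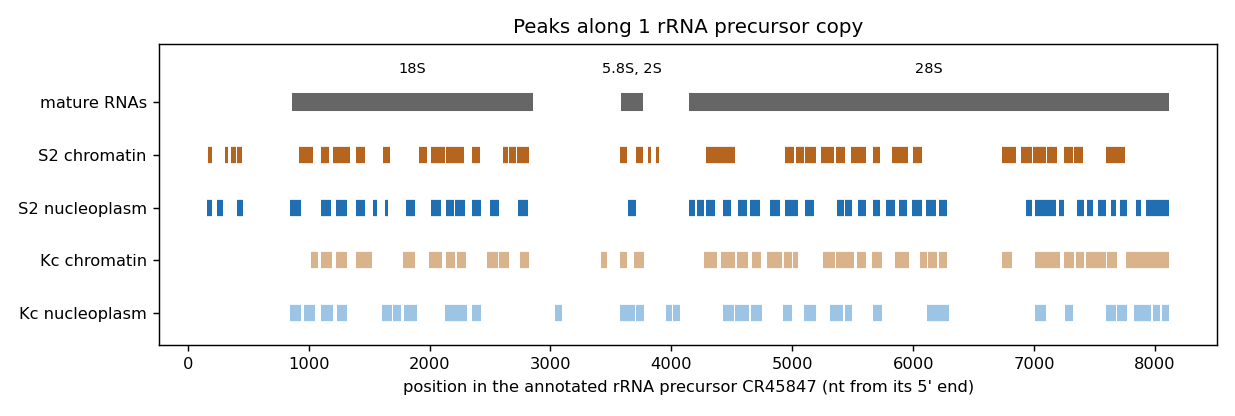
Peaks along 1 annotated rRNA precursor (x axis, nt from its 5' end; grey bars, mature RNAs; 1 row for each fraction of S2 and of Kc). The 2 S2 rows cover 39% and 39.7% of the precursor, the S2 rows leave 456 nt of 28S free, and the last part of 28S has nucleoplasm but no chromatin peaks in S2.

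Protein-coding genes with a nucleoplasm peak numbered 10 of 13986, or 0.0715%, against 418 in chromatin, or 2.99%. With so few, 9 of the 10 are named, with dm6 coordinates. Peaks in 3' UTRs fell in RnrS, the small subunit of ribonucleotide reductase (chromosome 2R, 11983403 to 11983431), Rap1, a small GTPase (3L, 1860184 to 1860206), and CG31523 (3R, 4465441 to 4465465). CDS peaks fell in CG1317 (3L, 2368863 to 2368891), Karybeta3, a nuclear import receptor (3R, 4652854 to 4652884), and CG3847 (X, 6347843 to 6347867). Peaks in 5' UTRs fell in Hipk, a protein kinase (3L, 543186 to 543208), and CG31224 (3R, 18656973 to 18657016). Each gene had 1 nucleoplasm peak, and 6 of the 9 nucleoplasm peaks in coding exons were under 30 nt.

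In 4 of the 10 genes chromatin also had a peak, but at the same place in 1 gene alone. pHCl-1, a chloride channel gene, had an identical 18-nt intronic peak in both fractions (3L, 15891295 to 15891312). In Karybeta3 the chromatin peak lay in the CDS 570 nt from that of nucleoplasm. In CG1317 it lay in the 5' UTR, 3001 nt away, and in Hipk in the 3' UTR, 32934 nt away along the gene. Sharing a gene therefore meant sharing a site once in 4.

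The chromatin signal in coding genes was spread thinly. Of 418 genes 366 had a single peak and 52 had at least 2. pAbp, which encodes the cytoplasmic poly(A)-binding protein, had the most with 7, of which 6 lay in the 3' UTR. aqz followed with 4, all in the 3' UTR on chromosome 3R between 8814858 and 8816264. The genes with 3 were Bsg, encoding the membrane glycoprotein basigin, larp, a La-related RNA-binding protein, mt:ATPase6 of the mitochondrial genome, sty, an inhibitor of receptor tyrosine kinase signalling, Df31, spin, and the laminin chains LanB1 and LanB2. RpS7 led those with 2 by width, with CDS peaks of 64 and 113 nt, and was followed by Prosalpha2, RpL8, Eb1, Csk, kek1, RpL5, pcx, CaBP1 and RpL17. None of these 20 genes had a nucleoplasm peak, which does not set them apart, since 0.0715% of all protein-coding genes had one. The peaks were spread along the reading frame. Of 209 CDS peaks placed on a nuclear gene, 66 lay in the first, 70 in the middle and 73 in the last of 3 equal parts.

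No list of nuclear protein-coding genes held a nucleoplasm peak. With 0.0715% of all protein-coding genes carrying one, nothing about these lists can be read from that. For the dosage compensation genes chromatin had 2 of 10, roX2 (X, 11580083 to 11580105) and Unr, an RNA-binding translation regulator of msl-2 (3' UTR, 3L, 8432474 to 8432512). For sex determination it had 1 of 8, fru, a transcription factor gene of sexual behaviour (3' UTR). Against the chromatin background of 3.48% of all genes, these shares rest on 1 or 2 genes each. For the GAGA-site, insulator and Polycomb list it had 1 of 14, the insulator protein gene Cp190.

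Lists of ribosomal, structural and RNA-binding proteins had more. Cytosolic ribosomal proteins had a chromatin peak in 23 of 93 genes, with 31 peaks, led by RpS7, RpL8, RpL5 and RpL17. Translation factors had 5 of 17, among them pAbp and eEF1alpha1, the latter with 2 CDS peaks. The hnRNP and splicing regulators had 5 of 17, namely Hrb98DE with 2 peaks and Hrb27C, Hrb87F, ps and sqd with 1. Cytoskeleton genes had 5 of 13, including Act5C, Moe, alphaTub84B and kst. Laminin, collagen and hemocyte genes had 6 of 12, led by LanB1, LanB2, LanA and vkg. Heat shock and chaperone genes had 3 of 13, Hsp83, Hsc70-4 and Hsc70-3. The core spliceosome proteins had none of 14, which is near the 2.99% of protein-coding genes with a chromatin peak. The replication-dependent histone genes had none of 111. RNA abundance was not measured here, and its part in these counts was not tested.

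**Figure D5:**
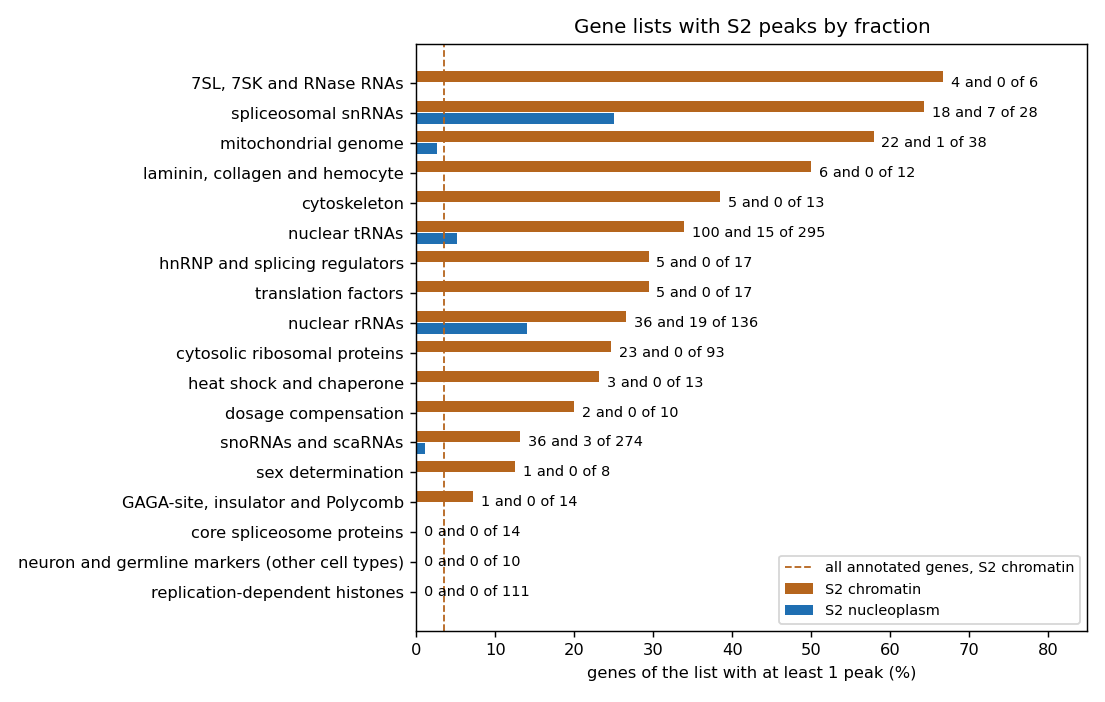
Share of each gene list with at least 1 S2 peak (x axis, % of the list's annotated genes; orange, chromatin; blue, nucleoplasm; numbers give both counts and the list size). The dashed line is the 3.48% of all annotated genes with a chromatin peak, and blue bars appear only for snRNAs, nuclear tRNAs, nuclear rRNAs, snoRNAs and the mitochondrial genome.

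The mitochondrial genome gave 45 chromatin peaks and 2 nucleoplasm peaks. In chromatin 18 were given to the 2 rRNA genes, 14 to 13 tRNA genes and 10 to 7 coding genes, small RNAs taking priority. The peak counted for mt:tRNA:Leu-TAG (12734 to 12788) shares 1 nt with that gene and otherwise lies in mt:lrRNA. Both nucleoplasm peaks lay in mt:lrRNA, the large rRNA. The one at 261 to 307 overlapped a chromatin peak at 286 to 353, and the one at 27 to 74 had no partner among the 11 chromatin peaks given to the gene. In Kc cells the latter site overlapped a chromatin peak. Mitochondrial RNA is made outside the nucleus. The rRNA, CDS and small RNA classes above include these mitochondrial peaks, and mt:lrRNA is among the rRNA genes shared by both fractions. Class shares without them were not computed.

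Transposable elements held 69 chromatin peaks in 62 insertions of 16 families. The LTR retrotransposons 297 and copia led with 19 and 18 peaks, followed by diver with 7 and roo with 4. The nucleoplasm list had 0 of 391 peaks in this class, which allows a share of up to 0.767%.

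Set beside the female line, overlap of nucleoplasm with chromatin was of similar size over all peaks, at 68.3% in S2 and 71.8% (67.9 to 75.4) in Kc. In small non-coding RNAs the value for S2 was 88.9% (71.9 to 96.1) and that for Kc 35.3% (21.5 to 52.1), where 12 of 34 peaks had a partner. The 2 intervals do not overlap, and the difference between lines was not tested. Possible chromatin partners of this class numbered 186 for S2 against 96 for Kc. The part of these counts in the contrast was not tested. In the opposite direction, 45.9% of Kc chromatin peaks met Kc nucleoplasm, against 18.8% in S2. These 2 shares also depend on list length, with 874 chromatin and 546 nucleoplasm peaks in Kc against 1416 and 391 in S2.

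Across lines, S2 nucleoplasm peaks met Kc chromatin more often than they met S2 chromatin, with 315 of 391, or 80.6% (76.4 to 84.2). This held in the rDNA regions and rRNA genes, at 86.1% (80.3 to 90.4) for Kc chromatin and 72.8% (65.9 to 78.8) for S2 chromatin. On the chromosome arms the order was the other way, at 27.5% (16.1 to 42.8) for Kc chromatin and 62.5% (47 to 75.8) for S2 chromatin. Of the 124 S2 nucleoplasm peaks without an S2 chromatin partner, 100 overlapped a Kc peak, or 80.6%, and 85 lay within 100 nt of an S2 chromatin peak. The Kc share was no higher than among the 267 peaks with a partner, of which 237 overlapped a Kc peak, or 88.8%. In the rRNA, scaffold and intergenic classes it was 89% without a partner and 94.2% with one. Outside rRNA, scaffold, intergenic and small RNA classes 12 peaks had no chromatin partner. Of these 1 overlapped a Kc peak and none lay within 100 nt of an S2 chromatin peak.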

How the data were processed

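Reads were handled by the authors with STAR 2.5.2b-2 on build dm6, cutadapt 3.5, UMI-tools and FastQC, per the submitters' processing notes. Per the labels' protocols, peaks were called after the Galaxy CLIP-Explorer workflow. Caller, threshold, pooled libraries and the handling of multi-mapping reads: not given in the sources used here. Each fraction has 1 deposited list, in which every score equals 0, so the score served for no ranking or filter. Depth is unknown. An S2 cytoplasm list was not analysed here.

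Peaks were placed, 1-based, on Ensembl release 115 gene models (BDGP 6.54) with Python 3.11.15, numpy 2.4.6, scipy 1.17.1 and matplotlib 3.10.9, after the scripts were tested on simulated data. The class was read at the midpoint by priority: small non-coding RNA (exons of non-coding RNAs shorter than 500 nt), then rRNA, coding exon (5' UTR before CDS before 3' UTR), other non-coding exon, transposable element, intron, antisense and intergenic. Scaffolds whose names matched none in the gene models formed a class of their own, called scaffolds without annotation. Peaks on them were given to no gene. Each peak was given to at most 1 gene. The rDNA scaffold was matched to the annotation by inference, and the rDNA block of X was taken as 23200802 to 23538283. Overlap needed 1 nt on the same strand.

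The comparison, lists and rule for named genes were chosen with earlier results of these data known. The rule took every coding gene with a nucleoplasm peak, genes or RNA families shared by both fractions, the 20 coding genes with most chromatin peaks (ties by summed width), up to 4 genes of each list, and dosage compensation and sex determination genes with a peak. Of the genes the rule takes, 1 with a nucleoplasm peak is not reported here. Other genes were named after their values were seen. Alternatives changed peak width, strand, regions, merging, overlap and counting of copies. Sequence content was not analysed, because no genome sequence was used here.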

Additional observations from a re-analysis of the deposited data

Results flagged for a closer look

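CDS peaks differed between fractions in opposite directions in the 2 lines. The odds ratio of chromatin over nucleoplasm was 15.9 (6.2 to 40.6) in S2, from 220 of 1416 and 4 of 391 peaks, and 0.461 (0.249 to 0.851) in Kc, from 18 of 874 and 24 of 546. The difference between the lines was not tested.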

How the results depend on the processing

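Of 58 alternative values, 38 kept their direction and lay within the reported interval (the quartiles for widths) or, for counts of genes, within 1.5 times the reported count, 19 moved and 1 reversed. With peaks of at least 30 nt the coding-exon odds ratio was 31.3, from 246 chromatin and 3 nucleoplasm peaks, and chromatin target genes numbered 456. The share of nucleoplasm peaks that met chromatin was 75.1% with peaks within 50 nt merged, 61.9% when at least 50% of the shorter peak had to be shared and 90% with a gap of up to 100 nt allowed. The share of chromatin peaks that met nucleoplasm was 16.1%, 16.5% and 29% under the same settings, 23% with peaks of at least 30 nt and 12.8% without rDNA and rRNA genes. Merging took the rRNA odds ratio of chromatin over nucleoplasm from 0.519 to 0.28. Nucleoplasm target genes numbered 36 without rDNA and rRNA genes and 29 with copies of 1 RNA counted once, and shared genes 28 and 21. On the chromosome arms outside rDNA, chosen after seeing the data, the 2 overlaps were 62.5% and 3.13%, the coding-exon odds ratio was 3.42, the small RNA odds ratio reversed from 2.01 to 0.136, target genes of nucleoplasm and of both numbered 36 and 28, and the nucleoplasm median width was 39 nt. The arms as defined leave out every peak on an rRNA gene or an unannotated scaffold, and they keep all 27 small RNA peaks of nucleoplasm. No paired analysis was possible because each fraction has 1 pooled list, and no replicate could be left out for the same reason. Alternatives that need peak sequences were not run. Without counts, depth could not be examined, and an absent peak is not an absent RNA.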

Other observations

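Unplaced scaffolds held 222 chromatin and 171 nucleoplasm peaks. They fell on 63 scaffolds in chromatin and 45 in nucleoplasm, of which 38 had both and 7 had nucleoplasm peaks alone. The scaffold names matched none in the gene models, so genes on them were not looked up. The small non-coding RNA class of chromatin also held 3 peaks in lncRNA:CR34335 on chromosome X, at 149 to 182, 216 to 239 and 329 to 356 of its 361 nt, and 2 peaks in snRNA:LU on chromosome 2L, at 1 to 63 and 59 to 96 of 116 nt. Neither gene had a nucleoplasm peak, and both were named after their values were seen. The widest nucleoplasm peak on the chromosome arms, of 147 nt, lay antisense to a gene at 7253665 to 7253811 of chromosome 3R and had no chromatin partner.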
